A study of Mus musculus with 5 samples.

Results

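The 43 genes described here copy DNA or mend it by homologous repair, and were taken by a list of mouse gene symbols. Each symbol matched 1 Ensembl gene in the GRCm38 annotation, giving 43 of the 54100 genes in the deposited table. Poly(A) RNA of the mouse melanoma line B16F10, whose cells make pigment, was sequenced in 5 libraries that stand for 5 groups. The groups were dynamic suspension culture (genotype WT), conventional three-dimensional (3D) culture (WT), cells labelled HIF-1α overexpression, cells labelled HIF-1α knockdown, and shControl cells (WT). HIF-1α, the product of Hif1a, is the part of a transcription factor that builds up when oxygen is low. All 5 samples carry the same growth protocol in the labels, 7 to 10 days in medium without serum under shaking (60 to 80 rpm), and no further treatment. How the 2 cultures differed is therefore known from their titles alone, and the vectors, the number of clones and the oxygen level are not given in the labels. By the design text the study set ways of enriching stem-like cells of the line beside each other, and 3 repeats of each group were pooled into its library. Groups therefore have no replicates, so the differences below carry no test between conditions and no p-value.

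DNA is copied once per cell cycle. In G1 phase, Cdc6 and Cdt1 load the ring of Mcm2 to Mcm7 onto origins, and in S phase Cdc45 and the GINS complex turn that ring into the working helicase. Polymerases, the sliding clamp Pcna and its loaders then copy the strands with nucleotides that ribonucleotide reductase and thymidylate synthase supply. Most of these genes are read in late G1 and S phase under the E2F transcription factors, which are switched on when the retinoblastoma protein is phosphorylated. Homologous repair, with Brca1, Brca2 and their partners, and the Fanconi pathway mend broken or cross-linked DNA from the sister copy, so cells use them mainly in S and G2 phase. In a tumour line the level of these transcripts in bulk RNA follows how many cells are in cycle as well as how much RNA each cell makes, and in these libraries fewer cycling cells and less RNA per cell cannot be told apart.

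The deposited values summed to between 59493240 and 61267892 in dynamic suspension, conventional 3D culture and shControl, and to 15393189 and 14803426 in the libraries labelled overexpression and knockdown. Judged by their pattern, the 3 larger columns hold estimated counts, in which 4 and 8 are overly common among low values. The columns of the 2 labelled lines look like plain counts. The program behind either kind is not known. Divided by 4, the larger sums came to between 14873310 and 15316973. Where a labelled line is set against shControl, the group and the kind of column cannot be told apart. Dynamic suspension against conventional 3D culture, and the line labelled overexpression against that labelled knockdown, each set columns of 1 kind side by side. Levels are given as TMM-scaled CPM (counts scaled to library size). Hif1a itself stood at 390.5 CPM in dynamic suspension, 542 in conventional 3D culture, 384 in the library labelled overexpression, 95.1 in the library labelled knockdown and 61.3 in shControl. The library labelled knockdown thus held more Hif1a than shControl, which goes against its label, and every direction drawn from it below is that of the library labelled knockdown.

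All 8 melanocyte markers examined (Mitf, Pmel, Tyr, Tyrp1, Dct, Mlana, Sox10 and Slc45a2) were at 1 CPM or more in every library. Their summed level was 19036 CPM in dynamic suspension, 32467 in conventional 3D culture, 29130 in the library labelled overexpression, 15403 in the library labelled knockdown and 25482 in shControl. The 8 fibroblast markers summed to 29.5 CPM in dynamic suspension, 83.4 in conventional 3D culture, 15.6 and 35.6 in the libraries labelled overexpression and knockdown, and 30.0 in shControl. Among them Col1a2 was at 8.16 CPM in dynamic suspension, 35.2 CPM in conventional 3D culture, 0 and 2.17 CPM in the libraries labelled overexpression and knockdown, and 11.0 CPM in shControl. Pdgfrb ran otherwise, at 11.2 CPM in dynamic suspension, 7.48 CPM in conventional 3D culture, 12.6 and 24.6 CPM in the libraries labelled overexpression and knockdown, and 5.91 CPM in shControl. The 10 immune markers summed to between 0.853 and 15.8 CPM, with Cd68 the highest of them in every library, and the 6 endothelial markers to between 1.85 and 10.7 CPM, most of it Vwf. Cd3e, Itgam, Cdh5, Tek, Epcam, Hba-a1 and Hbb-bs were at 0 in all 5 libraries. The part of the fibroblast and endothelial markers in the differences between cultures was not tested.

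Every one of the 43 genes was read in every library, the lowest deposited value being 43. Together they made up 809.9 CPM in dynamic suspension, 2286 in conventional 3D culture, 1303 in the library labelled overexpression, 7690.2 in the library labelled knockdown and 5524 in shControl. The library labelled knockdown was the highest of the 5 for 33 genes and shControl for 8, whereas dynamic suspension was the lowest for 35 and the library labelled overexpression for 6. The exceptions were few: Brca1 was highest in conventional 3D culture, Atr was highest in the library labelled overexpression and lowest in that labelled knockdown, and Tyms was lowest in conventional 3D culture.

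**Figure D1:**
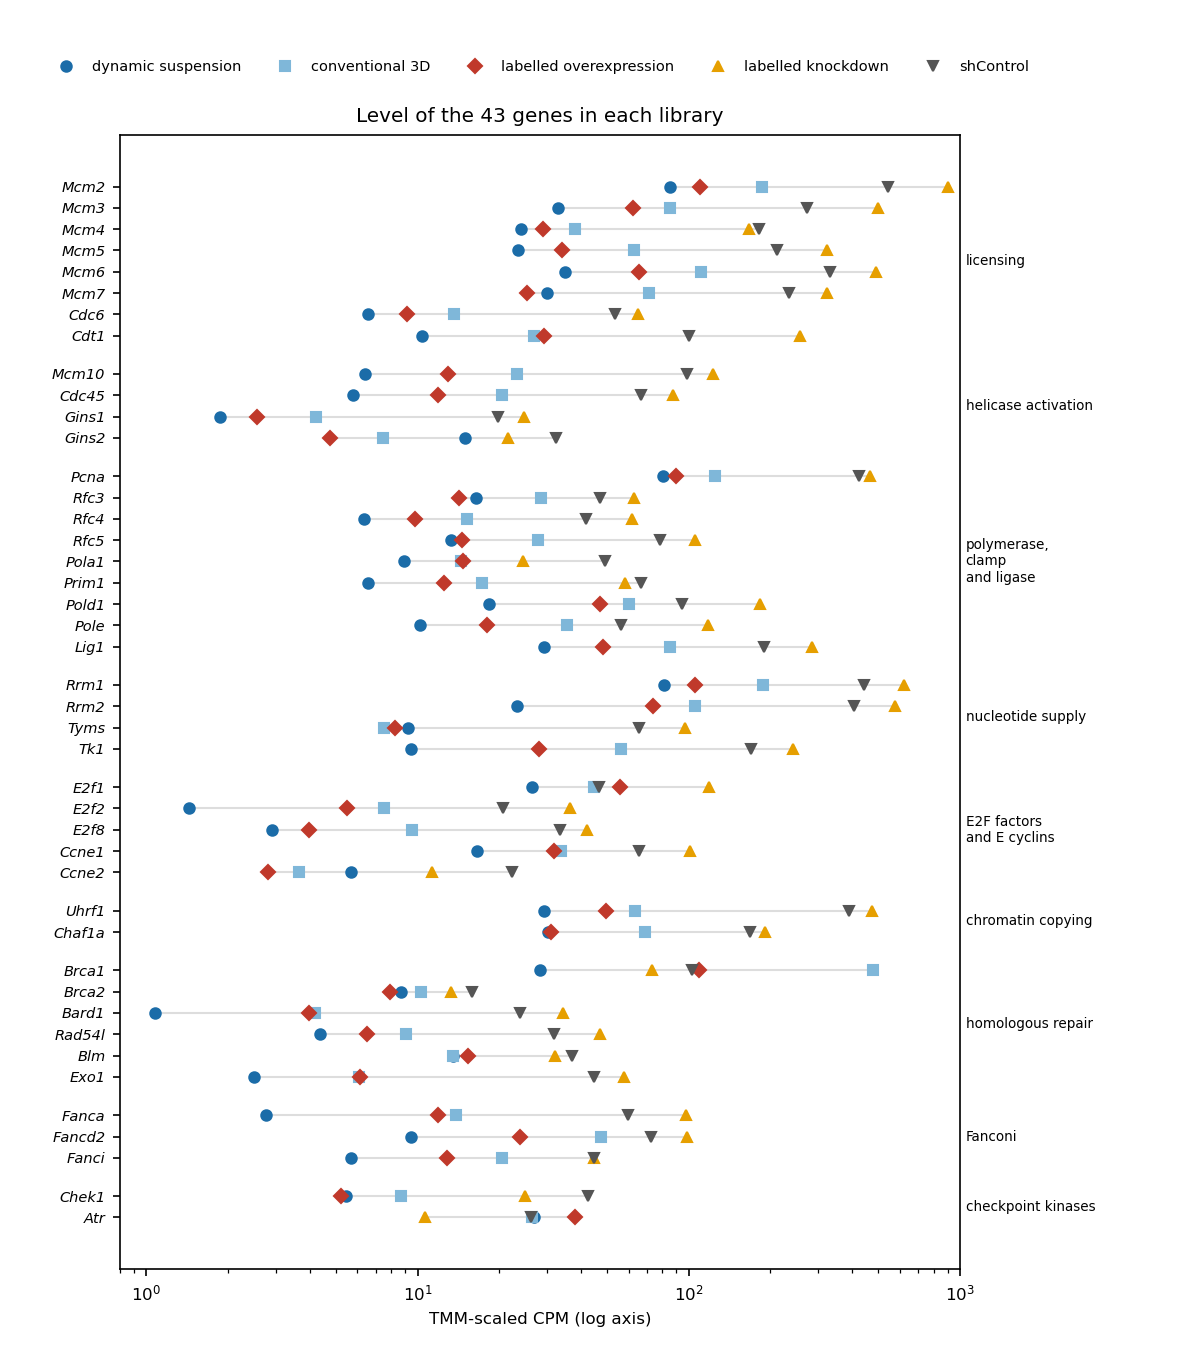
Level of each of the 43 genes (rows, grouped by role) in the 5 libraries (points), in TMM-scaled CPM on a log axis. For most genes dynamic suspension lies at the low end, with conventional 3D culture and the library labelled overexpression next and the library labelled knockdown and shControl at the high end; Brca1, highest in conventional 3D culture at 477 CPM, and Atr, lowest in the library labelled knockdown at 10.6 CPM, break the order.

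A gene is called beyond 2-fold here when its log2 ratio between 2 libraries was at least 1 in size, its mean was at least 1 CPM and the 95% interval of the ratio, which covers counting error only, excluded 1. In dynamic suspension against conventional 3D culture, 31 of the 43 genes were lower beyond 2-fold and 0 were higher, where 7.59% of the 12875 genes compared were lower and 6.41% higher. Their median log2 ratio was -1.25, beside -0.02 over all genes compared. The single ratios ran from -4.07 for Brca1 to 0.99 for Gins2.

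In the library labelled overexpression against shControl, 39 genes were lower and 0 higher, against 20.1% and 16.1% of 12881 genes, with a median log2 ratio of -2.33 beside -0.02. Against the library labelled knockdown, the library labelled overexpression was lower for 39 genes and higher for 1, Atr, where 14.9% of 12305 genes were lower and 17.7% higher, and the median was -2.70 beside -0.03. The library labelled knockdown set against shControl had 3 genes higher (6.98% of the 43) and 1 lower (2.33%). Of the 12639 genes compared there 8.04% were higher and 15.6% lower, so the count of higher genes was near the share of all genes. The 3 higher genes were Cdt1, E2f1 and Pole. Of the 43 ratios in that comparison 33 were above 0, and the share of all genes above 0 was not counted. The median of the 43 was 0.43, beside 0.01 over all genes compared.

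Both cultures were also low beside shControl. Dynamic suspension was lower than shControl for 40 genes and higher for 0, where 14.8% of 12940 genes were lower and 13.8% higher, at a median log2 ratio of -2.92 beside -0.03. Conventional 3D culture was lower for 34 genes and higher for 1, Brca1, where 14.8% of 12929 genes were lower and 13.9% higher, at a median of -1.70 beside -0.01. These comparisons share the shControl library, so their values are set side by side and no likeness is read from them.

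**Figure D2:**
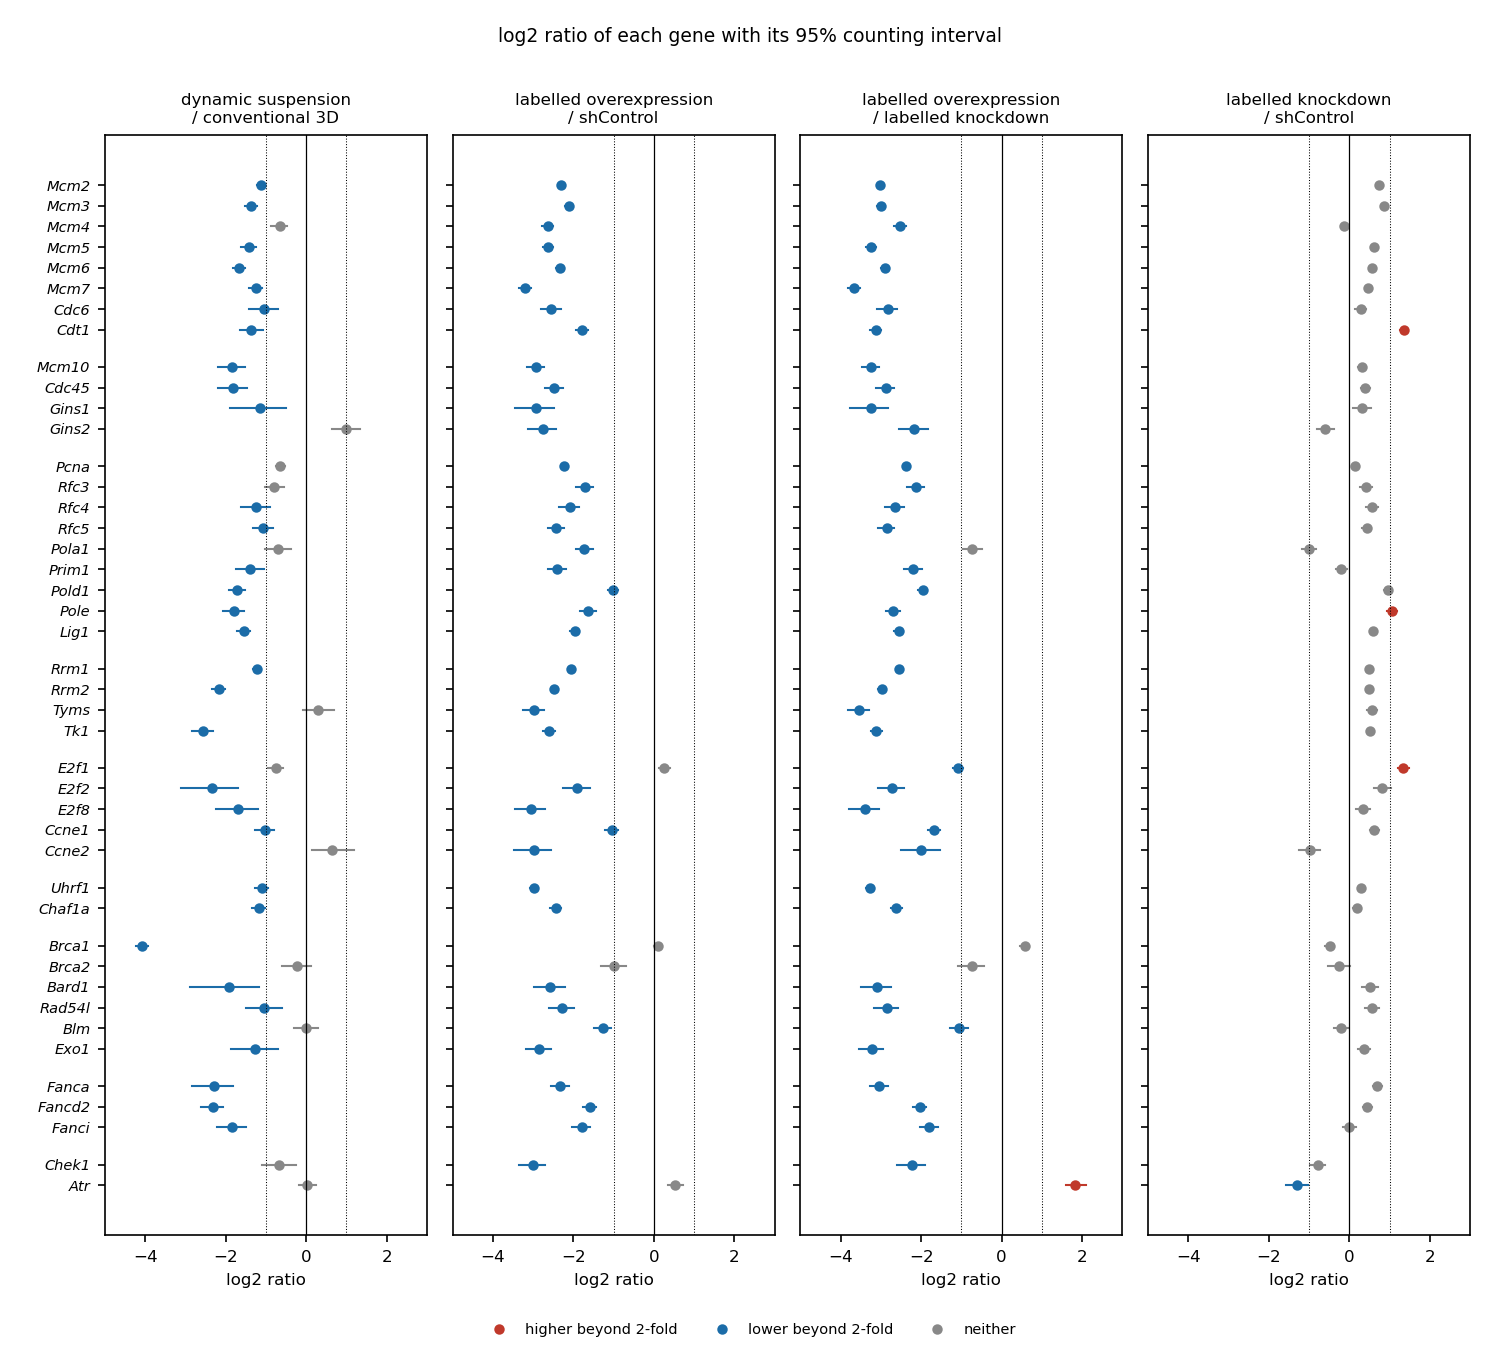
log2 ratio of each of the 43 genes (rows) in 4 of the 6 comparisons (panels), with 95% intervals for counting error and lines at 2-fold. Ratios lie mostly left of -1 in the panels of dynamic suspension against conventional 3D culture and of the line labelled overexpression, whereas 33 of 43 lie above 0 in the panel of the line labelled knockdown against shControl.

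The stretch of DNA just before the start of these genes was read for the letters that E2F factors bind (TTTCCCGC, TTTCGCGC, TTTGCCGC or TTTGGCGC on either strand). The RefSeq promoter table, of build GRCm38.p6, held windows from 250 bases before to 50 after the start for 36 of the 43 genes. E2F letters stood in 14 of the 36, or 38.9%, beside 2.6% of all 27025 genes in the table. Further replication genes, described as a list below, held them in 30.2% of the 43 with a window, and further homologous repair and Fanconi genes in 16.7% of 30. The 170 bases before the start are printed for 3 carriers and for Brca1, the gene whose pattern across libraries stood most apart, 5′ to 3′ on the gene's strand with the E2F letters in capitals.
Mcm5, chr8:75109339-75109508, plus strand: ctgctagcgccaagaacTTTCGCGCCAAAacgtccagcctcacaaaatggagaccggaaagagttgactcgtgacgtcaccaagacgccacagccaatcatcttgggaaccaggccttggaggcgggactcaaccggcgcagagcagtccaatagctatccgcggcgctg
Mcm6, chr1:128359706-128359875, minus strand: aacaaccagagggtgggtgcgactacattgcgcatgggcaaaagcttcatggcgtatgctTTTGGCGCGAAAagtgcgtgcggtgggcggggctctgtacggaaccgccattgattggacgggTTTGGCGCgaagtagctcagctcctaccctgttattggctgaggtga
Pola1, chrX:93632156-93632325, minus strand: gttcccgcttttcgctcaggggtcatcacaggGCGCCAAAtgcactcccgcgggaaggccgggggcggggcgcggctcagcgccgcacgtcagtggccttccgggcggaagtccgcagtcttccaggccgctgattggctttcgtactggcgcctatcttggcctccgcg
Brca1, chr11:101551956-101552125, minus strand: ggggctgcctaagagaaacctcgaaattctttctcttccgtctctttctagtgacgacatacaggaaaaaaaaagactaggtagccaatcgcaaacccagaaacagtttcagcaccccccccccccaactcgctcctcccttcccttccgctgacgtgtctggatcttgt
Mcm5 holds a pair of overlapping E2F matches, Mcm6 an overlapping pair and a further match nearer the start, Pola1 a single match on the opposite strand, and Brca1 none in this stretch. A match is a run of letters, and no binding was measured.

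Other motifs told the genes apart less from the table. CCAAT stood in 58.3% of the 36 beside 41.1% of all genes in the table, and the hypoxia response core (ACGTG or GCGTG) in 63.9% beside 46.7%. Neither was particular to the set. Among lists described below, the hypoxia core stood in 64.0% of mitosis, 62.5% of end-joining, 74.4% of further replication and 76.7% of further homologous repair and Fanconi genes. CCAAT stood in 72.0%, 50.0%, 48.8% and 66.7% of the same lists. The CHR element (TTTGAA or TTCGAA), known from promoters of mitosis genes, stood in 22.2% beside 21.7%, and in 76.0% of the 25 mitosis genes with a window, of which 4.0% held E2F letters. Genes of the set with E2F letters (14) and without (22) had nearby median log2 ratios, -1.37 and -1.20 in dynamic suspension against conventional 3D culture, and -2.04 and -2.32 in the library labelled overexpression against shControl.

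Among the genes that license origins, Mcm2 (ENSMUSG00000002870, chromosome 6, 88883474 to 88898780, minus strand), a subunit of the replicative helicase, stood at 85.0 CPM in dynamic suspension, 187 in conventional 3D culture, 110.2 in the library labelled overexpression, 901 in the library labelled knockdown and 542 in shControl. Mcm5 had 23.5 and 63.0 CPM in dynamic suspension and conventional 3D culture, 34.1 and 324 CPM in the libraries labelled overexpression and knockdown, and 212 CPM in shControl. Mcm6 had 34.9 and 111 CPM in dynamic suspension and conventional 3D culture, 65.4 and 488 CPM in the libraries labelled overexpression and knockdown, and 331 CPM in shControl. These 3 subunits ran in 1 order, lowest in dynamic suspension, then the library labelled overexpression, conventional 3D culture, shControl and, highest, the library labelled knockdown. The order was not particular to them, as Mcm3, Cdc6, Mcm10 and further genes of the set ran in it too. The log2 ratio of dynamic suspension to conventional 3D culture was -1.14 (interval -1.23 to -1.04) for Mcm2, -1.42 (interval -1.61 to -1.25) for Mcm5 and -1.66 (interval -1.81 to -1.52) for Mcm6.

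Mcm3 had 33.0 and 85.5 CPM in dynamic suspension and conventional 3D culture, 62.5 and 498 CPM in the libraries labelled overexpression and knockdown, and 272 CPM in shControl. Mcm7 (shared sequence) had 29.9 CPM in dynamic suspension and 71.2 in conventional 3D culture, and 25.4 in the library labelled overexpression, 323 in that labelled knockdown and 235 in shControl, and its log2 ratios in the library labelled overexpression were -3.21 (interval -3.36 to -3.06) to shControl and -3.66 (interval -3.81 to -3.52) to the library labelled knockdown, the lowest of the 43 genes in both. Genes marked "shared sequence" overlap another gene's exons, or share 50-base words with another gene, over at least 10% of their length. How their reads were assigned is not stated, so their values are uncertain, and 12 of the 43 carry the mark. Mcm4 differed from the other subunits, with 24.0 and 38.1 CPM in dynamic suspension and conventional 3D culture, 29.1 and 167 CPM in the libraries labelled overexpression and knockdown, and 182 CPM in shControl. It was the 1 subunit that stood lower in the line labelled knockdown than in shControl, by a log2 ratio of -0.12 (interval -0.20 to -0.05), and the 1 licensing gene not lower beyond 2-fold in dynamic suspension than in 3D culture, at -0.66 (interval -0.86 to -0.47).

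Since the ring takes 1 copy of each subunit, the 6 transcripts were also compared per kilobase of exon. The length is that of all annotated exons merged, 6956 bases for Mcm2 and 3589 for Mcm4. The length of the transcripts made was not measured, and ranks and spans between genes per kb, here and below, depend on it. Their mean level was 7.97 ± 2.30 CPM per kb in dynamic suspension, 19.3 ± 6.11 in conventional 3D culture, 11.5 ± 4.59 in the library labelled overexpression, 94.6 ± 33.9 in the library labelled knockdown and 63.0 ± 12.0 in shControl (SD over the 6 genes, not over replicates). The highest subunit was 2.08 times the lowest in dynamic suspension, 2.53 times in conventional 3D culture, 2.90 and 2.85 times in the libraries labelled overexpression and knockdown, and 1.54 times in shControl. Without Mcm7, which is uncertain, the span was 2.06 times in the library labelled overexpression and did not change in the others, a comparison chosen after the data were seen. By this measure the subunits were closest together in shControl. Mcm2 was highest per length in dynamic suspension, conventional 3D culture and shControl, and Mcm3 in both labelled lines; Mcm4 was lowest in conventional 3D culture, the library labelled knockdown and shControl.

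**Figure D3:**
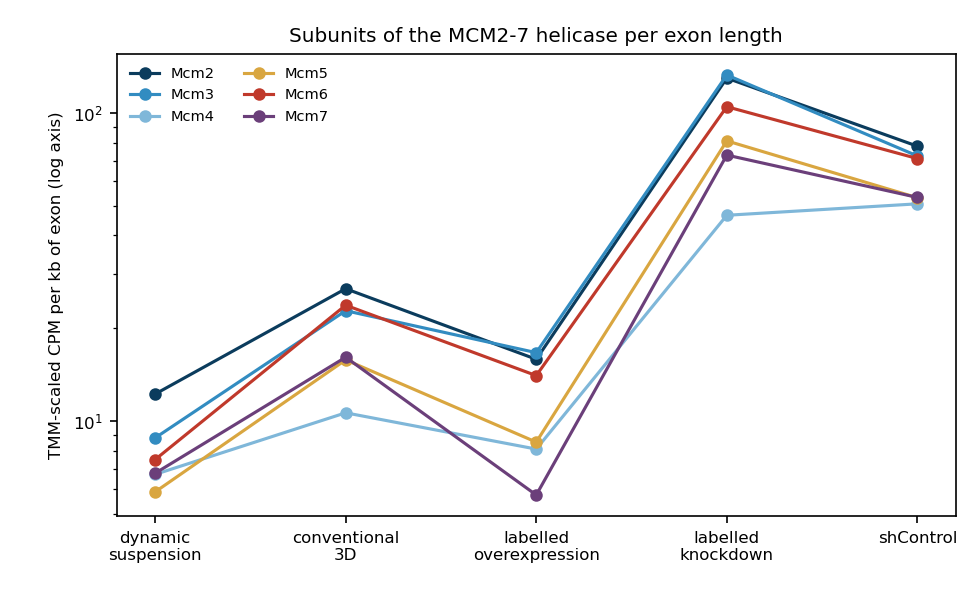
Level of the 6 subunits of the MCM2-7 helicase (lines) in the 5 libraries, in TMM-scaled CPM per kb of merged annotated exon on a log axis. The lines run together between libraries and spread least in shControl, where the highest is 1.54 times the lowest; the 2.90 times in the library labelled overexpression is 2.06 times without Mcm7.

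Cdt1 (ENSMUSG00000006585, chromosome 8, 122568015 to 122573554, plus strand), which brings the MCM ring to origins, had 10.4 CPM in dynamic suspension, 26.9 in conventional 3D culture, 29.2 in the library labelled overexpression, 256 in the library labelled knockdown and 101 in shControl. Its log2 ratio in the library labelled knockdown against shControl, 1.35 (interval 1.26 to 1.43), was the highest of the 43. Cdc6, the ATPase that works with Cdt1, had 6.55 and 13.7 CPM in dynamic suspension and conventional 3D culture, 9.11 and 65.1 CPM in the libraries labelled overexpression and knockdown, and 53.6 CPM in shControl and was the lowest licensing gene per length in every library. Of the 8 licensing genes 7 were lower in dynamic suspension than in 3D culture, with a median log2 ratio of -1.31. All 8 were lower in the library labelled overexpression than in shControl (median -2.44), and 1 was higher in the line labelled knockdown than in shControl (median 0.59). Counts by role, here and below, are to be read beside the shares of all genes given above for each comparison.

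Of the genes that activate the helicase, Mcm10, which is needed for the loaded helicase to start unwinding, had 6.41 CPM in dynamic suspension, 23.2 in conventional 3D culture, 12.9 in the library labelled overexpression, 123 in the library labelled knockdown and 98.8 in shControl. Its log2 ratio of dynamic suspension to conventional 3D culture was -1.85 (interval -2.20 to -1.52). Cdc45, the factor that joins the ring to make it active, had 5.78 and 20.5 CPM in dynamic suspension and conventional 3D culture, 11.8 and 87.7 CPM in the libraries labelled overexpression and knockdown, and 66.5 CPM in shControl. Gins1, a subunit of the GINS complex, had 1.87 and 4.21 CPM in dynamic suspension and conventional 3D culture, 2.56 and 24.7 CPM in the libraries labelled overexpression and knockdown, and 19.7 CPM in shControl. These 3 genes were lower beyond 2-fold in dynamic suspension than in 3D culture. In the library labelled knockdown against shControl 0 of the 4 passed 2-fold, where 8.04% of all genes compared were higher and 15.6% lower. With so few genes that count does not set the group apart from other genes.

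Gins2 went the other way between the cultures. It had 14.9 and 7.48 CPM in dynamic suspension and conventional 3D culture, 4.76 and 21.5 CPM in the libraries labelled overexpression and knockdown, and 32.5 CPM in shControl, so it stood higher in dynamic suspension than in 3D culture by a log2 ratio of 0.99 (interval 0.64 to 1.34), just short of 2-fold and past it when libraries were scaled by totals. Of its exon length 67.3% overlaps exons of Gse1, so part of its reads may be counted for either gene and the value is uncertain. Per kb, Gins2 was 2.95 times Gins1 in dynamic suspension, 0.657 times in conventional 3D culture, 0.688 and 0.322 times in the libraries labelled overexpression and knockdown, and 0.609 times in shControl.

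Among the polymerases, the clamp and the ligase, Pcna (shared sequence), the sliding clamp that holds polymerases on DNA, had the highest level per length in every library. It stood at 80.2 CPM in dynamic suspension, 125 in conventional 3D culture, 89.8 in the library labelled overexpression, 467 in the library labelled knockdown and 424 in shControl. Its log2 ratio of dynamic suspension to conventional 3D culture, -0.64 (interval -0.75 to -0.54), stayed inside 2-fold, as did those of Rfc3, a subunit of the loader that opens the clamp (-0.80), and Pola1 (-0.69). Rfc4 and Rfc5 (both shared sequence), further loader subunits, were lower, at -1.26 and -1.07. The 3 loader subunits ran from 6.32 to 16.4 CPM in dynamic suspension, 15.2 to 28.6 in conventional 3D culture, 9.76 to 14.6 in the library labelled overexpression, 61.6 to 106 in the library labelled knockdown and 41.8 to 78.6 in shControl.

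Pole, the catalytic subunit of the leading-strand polymerase epsilon, had 10.2 CPM in dynamic suspension, 35.5 in conventional 3D culture, 18.1 in the library labelled overexpression, 117 in the library labelled knockdown and 56.2 in shControl. Pold1, that of the lagging-strand polymerase delta, had 18.3 and 60.1 CPM in dynamic suspension and conventional 3D culture, 47.0 and 183 CPM in the libraries labelled overexpression and knockdown, and 94.6 CPM in shControl. Their log2 ratios of the library labelled knockdown to shControl were 1.06 (interval 0.95 to 1.18) and 0.95 (interval 0.86 to 1.04), the first past 2-fold and the second short of it. In conventional 3D culture neither was lower than shControl beyond 2-fold (-0.66 and -0.65), and in dynamic suspension both were (-2.45 and -2.37).

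Pola1 (ENSMUSG00000006678, chromosome X, 93304767 to 93632155, minus strand), the catalytic subunit of the polymerase that starts each new strand, had 8.92 CPM in dynamic suspension, 14.5 in conventional 3D culture, 14.8 in the library labelled overexpression, 24.5 in the library labelled knockdown and 49.0 in shControl. It stood lower in the line labelled knockdown than in shControl, by a log2 ratio of -0.995 (interval -1.18 to -0.82), just inside 2-fold. Prim1, the primase subunit that works in the same complex, had 6.55 and 17.3 CPM in dynamic suspension and conventional 3D culture, 12.6 and 58.0 CPM in the libraries labelled overexpression and knockdown, and 66.6 CPM in shControl and a ratio of -0.20. These were the 2 of the 9 genes below 0 in that comparison. The remaining subunits of the polymerase alpha complex, which are not among the 43 and were looked up after values were seen, lay above 0 there and inside 2-fold, Pola2 at 0.45 and Prim2 at 0.16.

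Lig1, the ligase that seals the fragments of the lagging strand, had 29.1 and 85.3 CPM in dynamic suspension and conventional 3D culture, 48.3 and 285 CPM in the libraries labelled overexpression and knockdown, and 189 CPM in shControl, with a log2 ratio of -1.55 between the cultures. Across the group, 6 of 9 genes were lower in dynamic suspension than in 3D culture (median log2 ratio -1.26). All 9 were lower in the library labelled overexpression than in shControl (median -1.97), Pold1 by the least, -1.01 (interval -1.14 to -0.88).

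Among the genes of nucleotide supply, Rrm1 and Rrm2 encode the large and the small subunit of ribonucleotide reductase, which makes the building blocks of DNA. Rrm1 had 80.9 and 188 CPM in dynamic suspension and conventional 3D culture, 106 and 619 CPM in the libraries labelled overexpression and knockdown, and 441 CPM in shControl. Rrm2, the subunit whose level follows S phase, had 23.3 CPM in dynamic suspension, 105 in conventional 3D culture, 73.5 in the library labelled overexpression, 577 in the library labelled knockdown and 408 in shControl. The small subunit differed more between the cultures, with a log2 ratio of dynamic suspension to conventional 3D culture of -2.18 (interval -2.35 to -2.01) against -1.21 (interval -1.31 to -1.11) for Rrm1. Per kb, Rrm2 was 1.14 times Rrm1 in dynamic suspension, 2.23 times in conventional 3D culture, 2.77 and 3.71 times in the libraries labelled overexpression and knockdown, and 3.68 times in shControl.

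Tk1, the cytosolic thymidine kinase of S phase, had 9.48 CPM in dynamic suspension, 56.2 in conventional 3D culture, 28.0 in the library labelled overexpression, 242 in the library labelled knockdown and 170.1 in shControl. Its log2 ratio between the cultures was -2.56 (interval -2.84 to -2.31), the lowest of the 43 after Brca1. Tyms, thymidylate synthase, had 9.24 and 7.55 CPM in dynamic suspension and conventional 3D culture, 8.28 and 96.9 CPM in the libraries labelled overexpression and knockdown, and 65.4 CPM in shControl, the lowest level per kb of this group in all 5 libraries. Alone in the group it was not lower in dynamic suspension than in 3D culture, and its interval held 0 (0.29 (interval -0.08 to 0.69)). It had the lowest ratio of the 43 in conventional 3D culture against shControl, -3.11 (interval -3.43 to -2.82). All 4 genes stood above shControl in the line labelled knockdown by a narrow range of log2 ratios, 0.49 to 0.57.

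Of the E2F factors, E2f1 (ENSMUSG00000027490, chromosome 2, 154559407 to 154569892, minus strand), an activating E2F, had 26.4 CPM in dynamic suspension, 44.6 in conventional 3D culture, 55.8 in the library labelled overexpression, 119 in the library labelled knockdown and 46.6 in shControl. It was higher in the line labelled knockdown than in shControl, by a log2 ratio of 1.34 (interval 1.22 to 1.47). Its log2 ratio in the library labelled overexpression against shControl was 0.26 (interval 0.12 to 0.40), above 0, and in conventional 3D culture it was -0.06 (interval -0.22 to 0.10), an interval that holds 0. E2f1 was among the 3 genes not lower beyond 2-fold in dynamic suspension than in shControl, with Brca2 and Atr, at -0.82.

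The other factors did not share its levels. E2f2, a second activator, had 1.44 and 7.50 CPM in dynamic suspension and conventional 3D culture, 5.48 and 36.5 CPM in the libraries labelled overexpression and knockdown, and 20.7 CPM in shControl, and its log2 ratio between the cultures was -2.34 (interval -3.10 to -1.69). E2f8 (shared sequence), which represses E2F targets late in S phase, had 2.91 and 9.53 CPM in dynamic suspension and conventional 3D culture, 3.99 and 42.3 CPM in the libraries labelled overexpression and knockdown, and 33.5 CPM in shControl, with -3.06 (interval -3.46 to -2.70) in the library labelled overexpression against shControl. Per kb, E2f8 was 0.0639 times E2f1 in dynamic suspension, 0.124 times in conventional 3D culture, 0.0414 and 0.207 times in the libraries labelled overexpression and knockdown, and 0.417 times in shControl.

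The E cyclins, partners of Cdk2 at the entry to S phase, parted from each other. Ccne1 had 16.5 and 33.9 CPM in dynamic suspension and conventional 3D culture, 31.7 and 101 CPM in the libraries labelled overexpression and knockdown, and 65.7 CPM in shControl. Ccne2 (shared sequence) had 5.69 and 3.65 CPM in dynamic suspension and conventional 3D culture, 2.80 and 11.3 CPM in the libraries labelled overexpression and knockdown, and 22.3 CPM in shControl. The log2 ratio of dynamic suspension to conventional 3D culture was -1.03 (interval -1.26 to -0.81) for Ccne1 and 0.64 (interval 0.13 to 1.20) for Ccne2, and that of the library labelled knockdown to shControl was 0.62 and -0.98 (interval -1.26 to -0.72), so the signs were opposite in both comparisons.

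Of the genes that copy chromatin, Uhrf1 (shared sequence), which brings the maintenance DNA methyltransferase to newly copied DNA, had 29.3 CPM in dynamic suspension, 63.1 in conventional 3D culture, 49.6 in the library labelled overexpression, 476 in the library labelled knockdown and 389.8 in shControl. Chaf1a, a subunit of the factor that places histones behind the fork, had 30.3 and 68.7 CPM in dynamic suspension and conventional 3D culture, 31.0 and 190.4 CPM in the libraries labelled overexpression and knockdown, and 168 CPM in shControl, and 52.5% of its exon length overlaps exons of Ubxn6. Both were lower in dynamic suspension than in 3D culture (-1.10 and -1.18) and in the library labelled overexpression than in shControl (-2.97 and -2.43).

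In homologous repair, Brca1 (ENSMUSG00000017146, chromosome 11, 101488764 to 101551955, minus strand), which with Bard1 forms the ubiquitin ligase that steers breaks into homologous repair, had 28.4 CPM in dynamic suspension, 477 in conventional 3D culture, 109 in the library labelled overexpression, 73.4 in the library labelled knockdown and 103 in shControl. The conventional 3D library stood far above the other 4. The log2 ratio of dynamic suspension to conventional 3D culture was -4.07 (interval -4.22 to -3.93), the lowest of the 43, and that of conventional 3D culture to shControl was 2.22 (interval 2.14 to 2.30), the highest. Brca1 in the line labelled overexpression was close to shControl, at 0.09 (interval -0.00 to 0.19).

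Bard1 did not share this pattern. It had 1.08 CPM in dynamic suspension, 4.19 in conventional 3D culture, 3.99 in the library labelled overexpression, 34.3 in the library labelled knockdown and 24.0 in shControl, so it was low in both cultures and in the library labelled overexpression. Its ratio to shControl in dynamic suspension, -4.42 (interval -5.32 to -3.78), was the lowest of the 43 in that comparison. Per kb, Bard1 was 0.0572 times Brca1 in dynamic suspension, 0.0132 times in conventional 3D culture, 0.0549 and 0.705 times in the libraries labelled overexpression and knockdown, and 0.352 times in shControl.

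The genes around Brca1 were looked at after its values were seen. Within 100 kb on either side lie 21 annotated genes, of which 11 were measured and 2 passed 2-fold in dynamic suspension against conventional 3D culture. With 7.59% of all genes compared lower and 6.41% higher there, so small a count does not set the neighbours apart. Gm27029 was higher, at a log2 ratio of 3.41, and Ptges3l was lower, at -2.35, and the exons of both overlap those of other genes. Nbr1, whose start lies 194 bases from that of Brca1 on the opposite strand, had 226 and 171 CPM in dynamic suspension and conventional 3D culture, 189.8 and 115 CPM in the libraries labelled overexpression and knockdown, and 124 CPM in shControl, a ratio between the cultures of 0.40.

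Brca2, a mediator of strand exchange with the sister copy, varied least of the 43, with 8.72 and 10.3 CPM in dynamic suspension and conventional 3D culture, 7.92 and 13.3 CPM in the libraries labelled overexpression and knockdown, and 15.8 CPM in shControl. Its highest library was 2.0 times its lowest, and it passed 2-fold in 0 of the 6 comparisons, coming nearest in the library labelled overexpression against shControl at -0.996 (interval -1.32 to -0.69). Rad54l (shared sequence), a motor protein of strand exchange, had 4.37 and 9.04 CPM in dynamic suspension and conventional 3D culture, 6.49 and 47.1 CPM in the libraries labelled overexpression and knockdown, and 31.9 CPM in shControl. Exo1, the nuclease that resects broken ends, had 2.50 and 6.07 CPM in dynamic suspension and conventional 3D culture, 6.13 and 57.6 CPM in the libraries labelled overexpression and knockdown, and 44.7 CPM in shControl. Unlike Brca2, Rad54l and Exo1 were each lower beyond 2-fold in both cultures and in the library labelled overexpression than in shControl. Exo1 was among the lowest 3 in conventional 3D culture against shControl, at -2.87 (interval -3.23 to -2.54).

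Blm, the helicase that dissolves repair intermediates, had 13.5 and 13.5 CPM in dynamic suspension and conventional 3D culture, 15.3 and 32.0 CPM in the libraries labelled overexpression and knockdown, and 37.0 CPM in shControl. The cultures held nearly 1 level of it, with a log2 ratio of -0.00 (interval -0.30 to 0.29), and both were lower than shControl (-1.45 in dynamic suspension and -1.45 in conventional 3D culture). Of the 6 repair genes 4 were lower in dynamic suspension than in 3D culture (median log2 ratio -1.15), and 4 were lower in the library labelled overexpression than in shControl (median -1.78). With the line labelled knockdown against shControl, 0 of the 6 passed 2-fold (median 0.08), where 8.04% of all genes compared were higher and 15.6% lower. A count of 0 among so few genes does not set them apart.

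Of the Fanconi genes, Fanca (shared sequence), a subunit of the core complex that marks cross-linked DNA, had 2.76 CPM in dynamic suspension, 13.8 in conventional 3D culture, 11.8 in the library labelled overexpression, 97.5 in the library labelled knockdown and 59.9 in shControl. Its highest library was 35.3 times its lowest, the widest span of the 43. Fancd2, which that complex marks with ubiquitin, had 9.47 and 47.6 CPM in dynamic suspension and conventional 3D culture, 23.9 and 98.5 CPM in the libraries labelled overexpression and knockdown, and 72.4 CPM in shControl. Fanci (shared sequence), its partner, had 5.68 and 20.5 CPM in dynamic suspension and conventional 3D culture, 12.9 and 44.8 CPM in the libraries labelled overexpression and knockdown, and 44.7 CPM in shControl. The log2 ratio of dynamic suspension to conventional 3D culture was -2.30 (interval -2.83 to -1.82) for Fanca, -2.33 (interval -2.60 to -2.07) for Fancd2 and -1.84 (interval -2.21 to -1.49) for Fanci, so all 3 were lower. Per kb, Fanci was between 0.591 and 0.849 times Fancd2 in the 5 libraries, a narrower span in proportion than that of the other pairs given per kb here.

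Of the checkpoint kinases, Atr (ENSMUSG00000032409, chromosome 9, 95857597 to 95951781, plus strand), the kinase that senses stalled forks, had 26.9 CPM in dynamic suspension, 26.4 in conventional 3D culture, 38.0 in the library labelled overexpression, 10.6 in the library labelled knockdown and 26.2 in shControl. Both cultures matched shControl within counting error, with log2 ratios of 0.04 (interval -0.16 to 0.24) in dynamic suspension and 0.01 (interval -0.20 to 0.22) in conventional 3D culture. The library labelled knockdown was lower than shControl, at -1.30 (interval -1.58 to -1.04), the lowest of the 43 in that comparison. The library labelled overexpression was higher than that labelled knockdown, at 1.83 (interval 1.59 to 2.10), the highest of the 43 in that pair.

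Chek1, the kinase that Atr activates, had 5.45 CPM in dynamic suspension, 8.70 in conventional 3D culture, 5.24 in the library labelled overexpression, 24.8 in the library labelled knockdown and 42.6 in shControl. It was lower in the library labelled overexpression than in shControl by -3.01 (interval -3.36 to -2.70). Per kb, Atr was 0.970 times Chek1 in dynamic suspension, 0.594 times in conventional 3D culture, 1.42 and 0.0841 times in the libraries labelled overexpression and knockdown, and 0.121 times in shControl. These ratios rest on merged exon lengths of 23629 bases for Atr and 4635 for Chek1. By them Atr exceeded Chek1 in the library labelled overexpression and was close to it in dynamic suspension.

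Other genes of the same processes were described by lists of which every measured gene was counted. Of all genes compared, 7.59% were lower and 6.41% higher in dynamic suspension than in 3D culture. Against shControl, 20.1% were lower and 16.1% higher in the line labelled overexpression, and 15.6% and 8.04% in that labelled knockdown. The list counts here and below are to be read beside these shares. Of 54 further replication genes, 14 were lower and 0 higher in dynamic suspension than in 3D culture (median log2 ratio -0.56), with Orc1, the origin-binding subunit, at -2.80 and Mcm9 at 0.53 as the ends. Against shControl, the line labelled overexpression had 41 lower and 2 higher (median -1.58). The 2 higher genes were Pold4, a small subunit of polymerase delta, at 1.76, and Rrm2b, the p53-induced reductase subunit, at 1.56. The lowest there was Fen1, the flap nuclease, at -6.16, with 84.2% of its exon length overlapping other genes' exons. The line labelled knockdown had 2 higher and 2 lower than shControl (median -0.00), Recql4 at 1.25 being the highest. Exons of Orc1, Mcm9 and Pold4 overlap other genes' exons over at least 10% of their length, as do those of Rad54b, Eme1 and Rb1 in the next lists, so these values are uncertain too.

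Of 40 further homologous repair and Fanconi genes, 9 were lower and 0 higher between the cultures (median -0.37), Rad54b at -2.26 being the lowest. Against shControl, 15 were lower and 0 higher in the line labelled overexpression (median -0.86), Eme1 at -3.27 the lowest and Atm at 0.96 the highest. The library labelled knockdown had 2 higher and 2 lower than shControl (median 0.05). Of 17 further E2F and DREAM genes 4 were lower between the cultures (median -0.30), among them E2f7 at -1.79 and Mybl2 at -1.73. Of the 17, 5 were lower in the line labelled overexpression than in shControl (median 0.04), Mybl2 at -3.06 and Rb1 at 0.93 being the ends.

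Repair routes that do not depend on a sister copy were counted in the same way. Of 11 end-joining genes 0 passed 2-fold between the cultures (median 0.16), and 1, Prkdc, was higher in the library labelled overexpression than in shControl, at 1.95 (median 0.18). With 7.59% of all genes lower and 6.41% higher between the cultures, low counts in these short lists do not set them apart from other genes. Of 30 excision and mismatch repair genes 1 was higher and 1 lower between the cultures (median -0.25). The higher was Ung, which removes uracil from DNA, at 1.39, and the lower was Neil3, a glycosylase, at -2.01. The line labelled overexpression had 3 of these higher and 9 lower than shControl (median -0.42), where 16.1% and 20.1% of all genes compared were higher and lower.

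The 30 mitosis genes were set beside the 43 in the same comparisons. All 30 were lower in dynamic suspension than in 3D culture (median log2 ratio -2.20), with Ccnb2 at -3.22 and Ndc80 at -1.11 as the ends. All 30 were lower in the library labelled overexpression than in shControl (median -2.88). The line labelled knockdown had 6 lower and 0 higher than shControl, where 15.6% of all genes compared were lower and 8.04% higher. The mitosis median there was -0.43 and that of the replication and repair genes 0.43, opposite in sign and both inside 2-fold. The mitosis median was below that of the 43 genes in dynamic suspension against shControl (-3.99 beside -2.92). It was above it in conventional 3D culture against shControl (-1.61 beside -1.70) and in the line labelled overexpression against that labelled knockdown (-2.30 beside -2.70). Summed, the 43 genes were 2.88 times the mitosis genes in dynamic suspension, 1.73 times in conventional 3D culture, 2.15 and 2.46 times in the libraries labelled overexpression and knockdown, and 1.39 times in shControl. Of the 10 measured G1 cyclins, kinases and inhibitors, 3 were lower between the cultures (median -0.39), and 0 passed 2-fold in the library labelled knockdown against shControl (median 0.38).

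**Figure D4:**
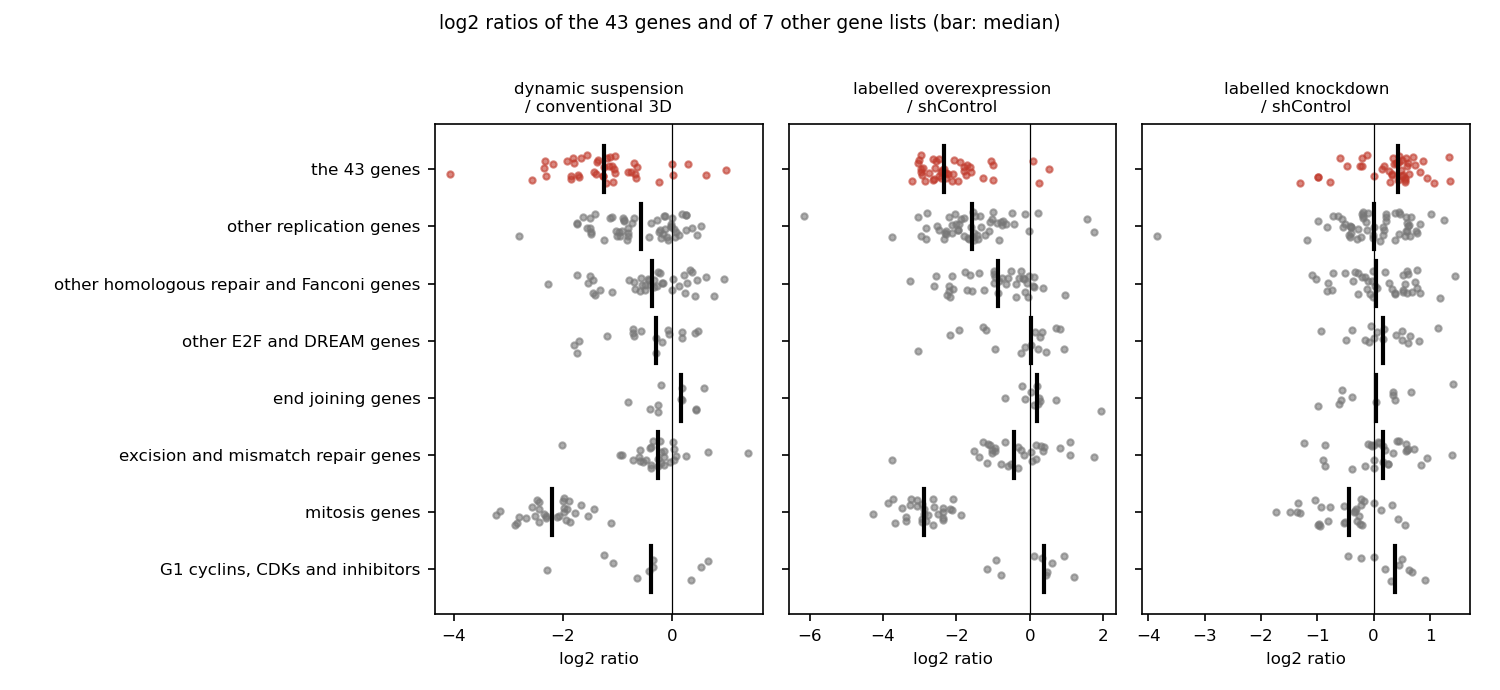
log2 ratios of the 43 genes and of 7 other gene lists (rows; points are measured genes, bars medians) in 3 of the 6 comparisons (panels). In dynamic suspension against conventional 3D culture the median is -2.20 for mitosis genes, -1.25 for the 43 genes and 0.16 for end-joining genes.

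Some of the genes start beside another gene read the opposite way. A partner on the other strand, with its start within 1000 bases, was found for 14 of the 43, and for 9 of them the partner was a measured protein-coding gene. In dynamic suspension against conventional 3D culture 8 of the 9 members were lower and 0 of the 9 partners passed 2-fold, with medians of -1.79 and -0.23. Of all genes compared there, 7.59% were lower and 6.41% higher. Among the partners, exons of Ap4m1, Ufd1, Pxmp2, Afmid and Pomgnt1 overlap those of other genes, so their values are less certain. Between the line labelled overexpression and shControl 8 members were lower, while 2 partners were higher and 1 lower, with medians of -2.48 and -0.08.

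Emc3, a subunit of a membrane protein complex of the endoplasmic reticulum, starts 30 bases from Fancd2 and had 199 and 189 CPM in dynamic suspension and conventional 3D culture, 149 and 157 CPM in the libraries labelled overexpression and knockdown, and 209 CPM in shControl. Its log2 ratio between the cultures was 0.07, beside -2.33 for Fancd2. Prkdc, the kinase of end joining, starts 466 bases from Mcm4 and had 42.6 and 50.6 CPM in dynamic suspension and conventional 3D culture, 57.8 and 23.7 CPM in the libraries labelled overexpression and knockdown, and 14.9 CPM in shControl. Abhd12, a lipase, starts 659 bases from Gins1 and had 315 and 437 CPM in dynamic suspension and conventional 3D culture, 302 and 103 CPM in the libraries labelled overexpression and knockdown, and 135 CPM in shControl. Prkdc and Abhd12 were the 2 partners higher in the library labelled overexpression than in shControl, at 1.95 and 1.17, while Mcm4 and Gins1 were lower, at -2.64 and -2.92.

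**Figure D5:**
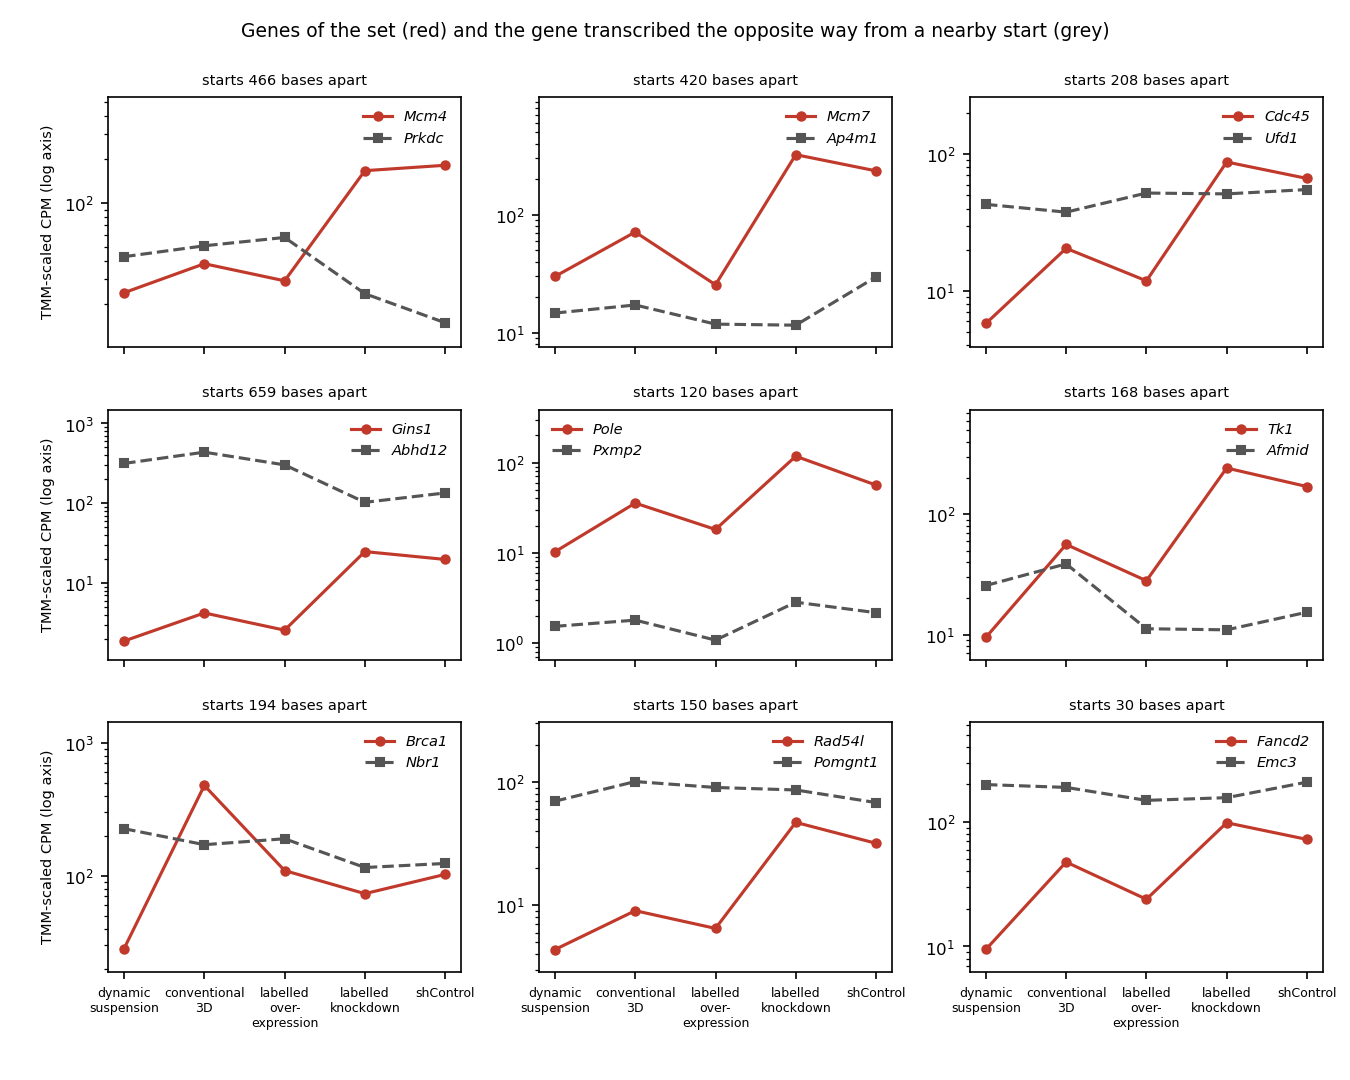
Levels in TMM-scaled CPM (log axis) of 9 members (red) and of the protein-coding gene read the opposite way from a nearby start (grey), in the 5 libraries (left to right). The members lie higher in the library labelled knockdown and shControl, Brca1 excepted, and the partners vary less between the cultures, where none passes 2-fold.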

How the data were processed

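RNA of 5 B16F10 libraries, 1 per group and each a pool of 3 repeats, was sequenced from poly(A) RNA as paired 150 bp reads of strand-specific libraries with inserts near 300 bp, per the labels' protocols. The submitters' processing notes list the tools cutadapt, HISAT2 and StringTie and the builds GRCm38.p6 and mm10, without their roles. Which program counted the reads, with which annotation and strand setting, is not given in the sources used here. The deposited values of dynamic suspension, conventional 3D culture and shControl were taken as estimated counts by their pattern, and those of the other 2 libraries as plain counts. In the first 3, 26.8% to 29.2% of values from 1 to 40 are multiples of 4. The shares are 17.3% and 16.1% in the libraries labelled overexpression and knockdown. All columns were assigned from the sample descriptions, with 0 left over, and the header of the library labelled knockdown is the bare name of the line.

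All 54100 gene identifiers matched GENCODE M21 of GRCm38, which gave names, coordinates and merged exon lengths. Libraries were scaled by TMM factors over all 5 (0.869 to 1.091, edgeR 4.0.16 in R 4.3.3), and log2 ratios of scaled CPM were computed with a prior count of 2, which pulls the ratios of low genes towards 0. The exact conditional binomial (Clopper-Pearson) 95% interval used values divided by 4 in the estimated columns, so that it is not narrower than 1 count per fragment gives, and it covers counting error only (scipy 1.17.1). The floor of 3 counts corresponds to 0.179 to 0.226 CPM by library, and no member was at 0. With 1 library per group there was no test across conditions. The call rule was tried on simulated counts with counting error only and without scaling factors. TMM scaling and spread between cultures were not part of that simulation.

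The 43 genes and the other gene lists were chosen with earlier results of these data known, and the lists are described by counts and medians over measured genes (those averaging at least 1 CPM over all libraries). Every library's value is given for the 3 highest and 3 lowest of the 43 genes in each comparison, for the highest and lowest per length of each role, and for Mcm2 to Mcm7, E2f1, E2f2 and E2f8. Of each other list, the 2 highest and 2 lowest could be named, and Hif1a, cell type markers and all partners by position were allowed. Alternatives were scaling by totals, by DESeq2 1.42.0 size factors or by TMM over protein-coding genes whose exons overlap no other gene's, no CPM minimum, a prior count of 0.5, the interval from values as deposited, and the 26 members whose exons overlap no other gene's. Promoter sequences are RefSeq's, for GRCm38.p6.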

Additional observations from a re-analysis of the deposited data

How the results depend on the processing

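No paired analysis was possible because each group has 1 library. Of 455 values recomputed under the alternatives, 41 moved beyond the limit set for them and 414 stayed within it. A change of sign was looked for only in genes called beyond 2-fold and in medians of at least 1 in size, and 0 were found. Uncalled ratios near 0 could change sign without being counted. Scaling by totals moved the median over all genes to 0.17 in dynamic suspension against conventional 3D culture and to -0.27 in conventional 3D culture against shControl, and took the share of higher genes among those called to 61.4% and 31.7%, against 45.8% and 48.5% as reported. With that scaling 1 of the 43 genes was higher in dynamic suspension than in 3D culture, 2 were lower in the line labelled knockdown than in shControl, and the median of conventional 3D culture against shControl was -1.95. With TMM over protein-coding genes of their own exons the first count was also 1 and the second was 3, and the all-gene medians of the libraries labelled overexpression and knockdown against shControl were -0.11 and -0.10. Among the 26 members whose exons overlap no other gene's, 18 were lower in dynamic suspension than in 3D culture, 24 in the library labelled overexpression than in shControl, and 24 in it than in the library labelled knockdown, with 0 higher. Further, 25 were lower in dynamic suspension and 21 in conventional 3D culture than in shControl, and 0 in the library labelled knockdown. Fewer members enter these last counts, which are to be read beside the shares of all genes given above for each comparison. Counting error was small beside most ratios, and spread between cultures was not measured.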
